A study of Mus musculus with 10 samples.

Results

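Loss of both Ring1 proteins, Ring1a and Ring1b, from the basal epidermis of mouse back skin was examined against its own controls. The comparison uses 4 of the 10 RNA sequencing libraries of the series, 2 labelled Ring1 control and 2 labelled Ring1a/b 2KO, and all 18344 protein-coding genes of the deposited table for these libraries. The 2KO mice carry the genotype Ring1a-/- Ring1b-/-, and the genotype of the others is given only as control. All groups received the same treatment, 4-hydroxytamoxifen at 20 mg/ml in ethanol, 100 µl on shaved back skin once a day for 4 days from postnatal day 50. Back skin was taken at postnatal day 71. Cells were sorted as positive for EpCAM and Sca1 and high for α6-integrin, the surface profile of the basal layer between hair follicles. Neither the Cre driver, the exons removed, the alleles of the controls nor the sex of the mice is stated, and nothing says whether each library is 1 mouse or a pool. The p-values below therefore measure only the spread between these libraries, which may be technical.

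Ring1a, encoded by Ring1, and Ring1b, encoded by Rnf2, are the ubiquitin ligases of Polycomb repressive complex 1 (PRC1), which places ubiquitin on histone H2A and compacts chromatin at silenced genes. Different versions of the complex share a Ring1 protein and differ in their Pcgf, Cbx, Phc and Rybp or Yaf2 subunits. Loss of both Ring1 proteins removes the catalytic core from every version. In many tissues the genes held silent by PRC1 include transcription factors that pattern the embryo, and in skin the complex is known for its part in the identity of epidermal cells.

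The recovered reads numbered 25158144 and 7162907 in controls 1 and 2 and 19814853 and 6237389 in 2KO libraries 1 and 2, so replicate 1 was 3.51 times deeper than replicate 2 among the controls and 3.18 times deeper among the 2KO libraries. 2KO library 2 stood apart. Its log2 values correlated with the controls at a Pearson r of 0.917 and 0.914 across genes, against 0.956 and 0.941 for 2KO library 1, and genes are not independent replicates. Mitochondrially encoded genes took 12.7% of its reads and 6.51% to 8.16% of the others. The summed level of 27 immediate early and heat shock genes, which react quickly when tissue is handled, was 59140 normalised counts there and 180400 to 457700 in the other libraries. Of 9 markers of the sorted cells, all were read in every library, with Krt5 at 133540, 113880, 121320 and 107870 in controls 1 and 2 and 2KO libraries 1 and 2. The groups overlapped for Krt5, Krt14, Epcam and Ly6a. Krt15, Col17a1, Itga6, Itgb4 and Trp63 were lower in both 2KO libraries than in both controls, as were 21.5% of all genes tested. None of these markers was called. The Y-linked genes Uty, Ddx3y, Eif2s3y and Kdm5d were high in both controls and low in both 2KO libraries (values below). Genotype and the sex of the mice cannot be told apart for any gene in this comparison.

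The targeted genes could not check the labels, because counts are summed over the whole gene and the removed exons are not given. Ring1 (ENSMUSG00000024325.8, mm10 chromosome 17, 34020792 to 34024680) had normalised read counts of 66.2 and 211 in the controls against 104 and 115 in the 2KO libraries, so the groups overlapped. Rnf2 (ENSMUSG00000026484.13, chromosome 1, 151458004 to 151500955) had 675 and 670 in the controls against 720.0 and 529 in the 2KO libraries, again with overlap. Their log2 fold changes were −0.11 (SE 0.543) and −0.12 (SE 0.23) in limma. The other subunits of the complex were also measured, and 0 of 25 PRC1 subunits were called in the authors' deposited table. Of these 25, 20 had a negative log2 fold change, with a median of −0.13. Pcgf5, which defines one of the variant complexes, had 1199 and 1092 in the controls against 732 and 498 in the 2KO libraries, a ratio of means of 0.537 with no overlap (limma adjusted p = 0.257). Phc1, a polyhomeotic subunit of the canonical complexes, had 42.7 and 41.5 against 91.5 and 199, also with no overlap (limma adjusted p = 0.331). Among 12 tested subunits of PRC2, the partner complex that methylates histone H3, 6 were positive and the median was 0.03, with 0 called in the authors' deposited table.

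The comparison asks which genes of these basal cells depend on the Ring1 proteins. Of 15310 genes with a mean normalised count of at least 5, limma called 6 at a Benjamini-Hochberg adjusted p under 0.05 (0.0392%), 5 higher (0.0327%) and 1 lower (0.00653%) in the 2KO libraries. In bulk RNA a difference can come from more or fewer cells of a type or from more or less RNA per cell, which cannot be told apart here. Gria3, which encodes a subunit of AMPA-type glutamate receptors (ENSMUSG00000001986.16, chromosome X, 41400854 to 41678601), had normalised counts of 79.7 and 83.1 in the controls against 639 and 1112 in the 2KO libraries. The ratio of means was 10.8, with a log2 fold change of 3.36 (SE 0.318, adjusted p = 0.00886). Both 2KO values lay far above both controls.

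Serpine2, which encodes the secreted protease inhibitor nexin-1 (ENSMUSG00000026249.10, chromosome 1, 79794197 to 79861180), had 144 and 131 in the controls against 868 and 1323 in the 2KO libraries. That was a ratio of 7.95 and a log2 fold change of 2.95 (SE 0.27, adjusted p = 0.00886 in limma). The antimicrobial peptide gene Defb1 (ENSMUSG00000044748.8, chromosome 8, 21776599 to 21795185) had 373 and 291 against 2617 and 1813. Here the ratio was 6.67 and the log2 fold change 2.72 (SE 0.247, limma adjusted p = 0.00886). For both genes the pair of values within each group lay close together and the groups were well apart.

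The neural cell adhesion molecule gene Ncam1 (ENSMUSG00000039542.16, chromosome 9, 49502136 to 49798925) had 40.1 and 46.5 in the controls against 813 and 416 in the 2KO libraries, 14.2-fold (log2 fold change 3.72, SE 0.388, limma adjusted p = 0.0152). Cald1 encodes caldesmon, which binds actin and myosin (ENSMUSG00000029761.16, chromosome 6, 34598500 to 34775473), and had 177 and 297 against 1548 and 1241, 5.88-fold (log2 fold change 2.59, SE 0.283, limma adjusted p = 0.0221). The plot of the called genes by library shows that the deeper and the shallower library of each group lie on the same side for each of them. The lower call was Uty, a Y-linked paralogue of a histone demethylase (ENSMUSG00000068457.14, chromosome Y, 1096861 to 1245759), with 314 and 287 in the controls against 22.3 and 35.9 in the 2KO libraries, 10.4-fold lower (log2 fold change −3.36, SE 0.417, limma adjusted p = 0.0436). Without control 1 or without control 2 limma called 0 genes. The adjusted p of these 6 genes then ranged from 0.522 to 0.736 and from 0.449 to 0.611, and without 2KO library 2 only 1 of the 6 passed.

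**Figure D1:**
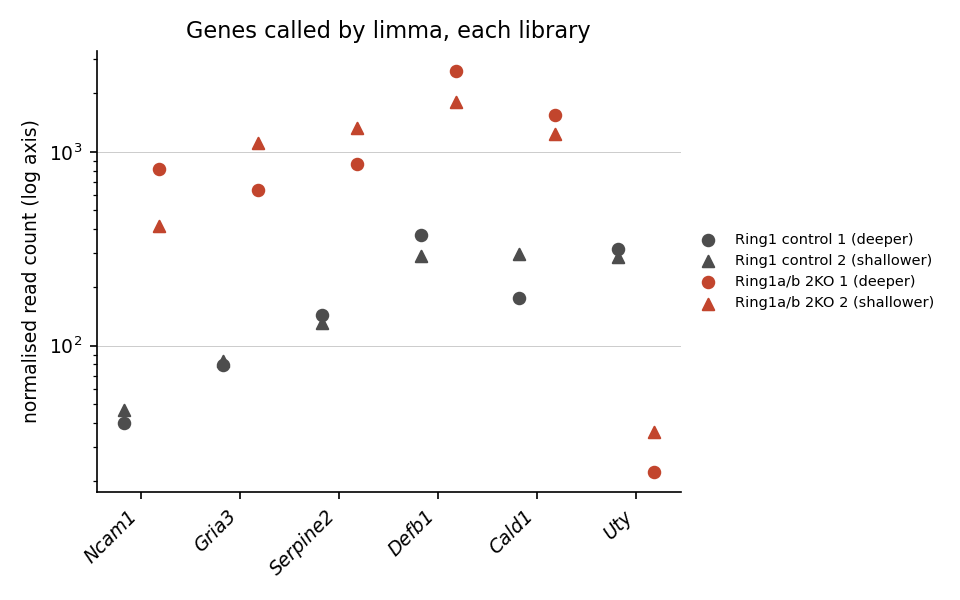
Normalised read count (log axis) of the 6 genes called by limma in each of the 4 libraries, with circles for the deeper and triangles for the shallower library of each group, grey for controls and red for 2KO. For Ncam1, Gria3, Serpine2, Defb1 and Cald1 both 2KO points lie above both controls, and for Uty both lie below.

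The authors' deposited table called 231 genes at an adjusted p under 0.05 of 15498 with an adjusted p (1.49%), 183 higher (1.18%) and 48 lower (0.31%). All 6 limma calls were among them, and DESeq2 on the recovered reads called the same 231. The edgeR quasi-likelihood test on those reads called 0 of 15310, with a smallest adjusted p of 0.0778 and 1474 genes at an unadjusted p under 0.05. limma had 1597 at an unadjusted p under 0.05 (10.4%), 5.62% of the genes tested being higher and 4.81% lower. All 183 higher and all 48 lower genes of the authors' deposited table had groups that did not overlap, as did 42.9% of all genes tested (21.4% higher and 21.5% lower). Genes below are called higher or lower by the authors' deposited table unless limma is named.

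The higher and the lower calls differed in their control level. The choice of calls sets part of this, because a gene with few control reads can hardly be called lower. The control values also enter the call itself. The 183 higher calls of the authors' deposited table had a median control mean of 37.9 normalised counts, the 48 lower calls 435, and all genes tested 221. Among the higher calls 102 had a control mean under 50, 46 under 10, and 13 had no control read at all. Only 3 of the 48 lower calls had a control mean under 50. The median ratio was 4.88 over the 164 higher calls with a plain ratio and the median fold reduction 3.55 over 45 lower calls. In the plot of fold change against level the higher calls run through the whole range of counts, and the lower calls gather at middle and high counts.

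**Figure D2:**
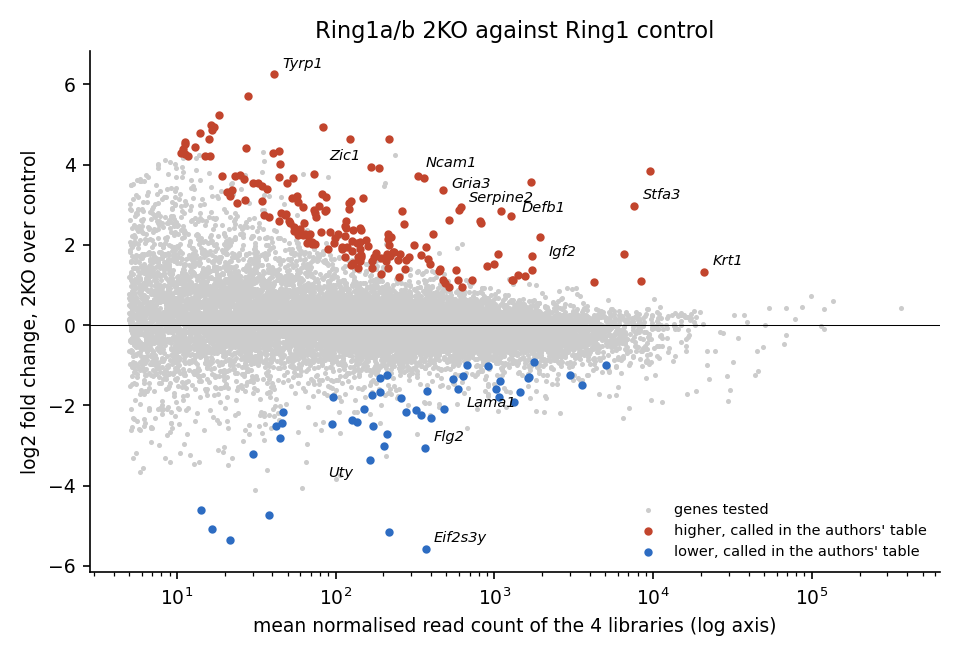
Each point is 1 of the 15310 genes tested, with its mean normalised read count over the 4 libraries (log axis) and its log2 fold change in limma. Red and blue points are the 183 higher and 48 lower calls of the authors' deposited table, and the lowest blue points on the right include the Y-linked Eif2s3y.

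Because each group holds 1 deep and 1 shallow library, the change was also read within each depth, as 2KO 1 against control 1 and as 2KO 2 against control 2. Of the 183 higher calls, 164 differed by at least a factor of 2 in the same direction at both depths, and so did 37 of the 48 lower calls. The calls were made on these same libraries and their groups do not overlap, so the shared direction was fixed in advance. The share over all genes tested was not taken, so these counts are a description only. The difference was the larger one in the shallower libraries for 109 of 183 higher and 32 of 48 lower calls. Calls were lost when DESeq2 was run on recovered reads with 1 library left out. The share of all genes called differed between these runs and was highest without 2KO library 1. Counts of list members called in such runs, given below, have no common background and are a description only. Without 2KO library 2, 46 of the 183 higher and 19 of the 48 lower calls were still called. Without 2KO library 1 these numbers were 93 and 36, without control 1 they were 27 and 4, and without control 2 they were 58 and 14.

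**Figure D3:**
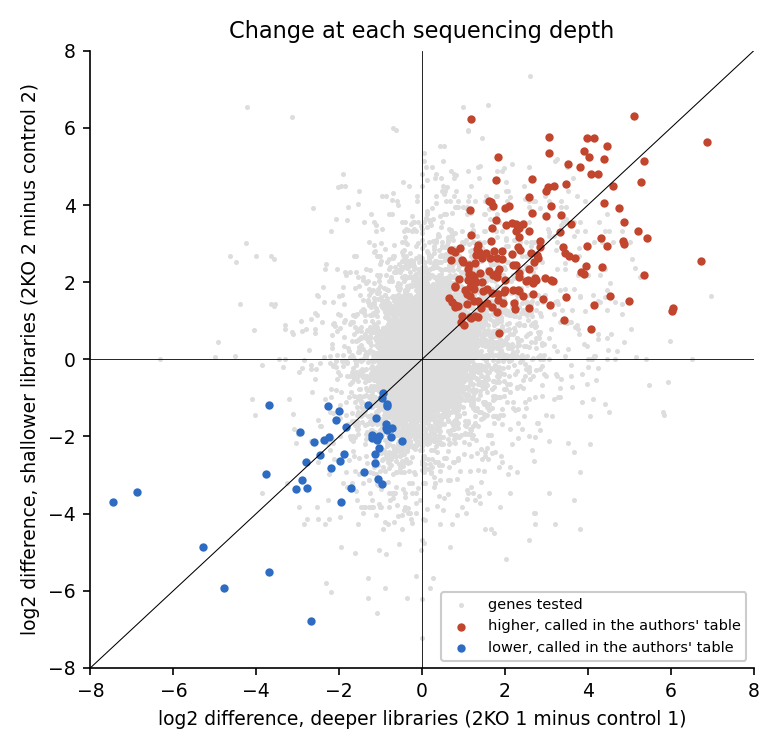
Log2 difference between 2KO and control in the deeper libraries (horizontal axis) and in the shallower libraries (vertical axis) for the genes tested, with the diagonal of equal change. The 183 higher calls lie in the upper right and the 48 lower calls in the lower left, 164 and 37 of them at least 1 log2 unit from 0 on both axes. Groups that do not overlap fix the quadrant of a call.

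A set of 21 genes was called by DESeq2 whichever of the 4 libraries was left out, and it was picked after these values were seen. The 18 higher ones were the 5 higher limma calls with Atg9b, Cdhr1, Ebf3, Endou, Fbln2, Igf2, Igfbp2, Lgi2, Mcam, Nav1, Smim3, Stfa3 and Tbx15. The 3 lower ones were the Y-linked Ddx3y, Eif2s3y and Uty. Igfbp2, which encodes a binding protein of insulin-like growth factors, had 38.0 and 43.2 in the controls against 245 and 1121 in the 2KO libraries. Both 2KO values were above both controls, and library 2 was the higher by far. Mcam, which encodes the melanoma cell adhesion molecule, had 339 and 163 against 1094 and 1719.5, and Nav1, a neuron navigator gene, had 161 and 118 against 541 and 827. Lgi2, of a family of secreted neuronal proteins, had 6.77 and 8.31 against 126 and 350, 31.5-fold. None of these values overlapped between the groups.

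The promoters of several called genes are printed to show how unlike they are in CG content, which is of interest because Polycomb complexes are known to occupy CG-rich promoters. The sequences are the 250 bases before the gene's start, from RefSeq (GRCm38.p6), 5′ to 3′ on the gene's strand, with every CG dinucleotide in capitals. Serpine2 and Cald1 are limma calls, Hoxd13 and Tyrp1 are higher and Flg2 is a lower call of the authors' deposited table, and Cald1 is shown at the first of its 2 listed starts. Gria3, Ncam1, Defb1 and Tbx15 are named only. RefSeq starts can differ from the gene ends given in the text, which are those of GENCODE M21.
Serpine2, chr1:79858666-79858915, minus strand: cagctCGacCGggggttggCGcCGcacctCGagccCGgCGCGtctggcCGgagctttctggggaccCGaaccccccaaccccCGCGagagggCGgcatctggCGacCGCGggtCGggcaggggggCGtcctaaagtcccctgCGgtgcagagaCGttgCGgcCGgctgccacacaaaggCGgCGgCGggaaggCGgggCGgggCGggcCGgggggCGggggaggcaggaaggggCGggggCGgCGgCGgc
Hoxd13, chr2:74667975-74668224, plus strand: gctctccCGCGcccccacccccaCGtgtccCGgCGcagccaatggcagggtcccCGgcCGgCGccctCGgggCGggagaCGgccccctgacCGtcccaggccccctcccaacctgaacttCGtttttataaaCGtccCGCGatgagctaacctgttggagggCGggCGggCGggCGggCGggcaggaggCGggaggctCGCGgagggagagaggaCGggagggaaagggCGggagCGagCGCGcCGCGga
Cald1, chr6:34598254-34598503, plus strand: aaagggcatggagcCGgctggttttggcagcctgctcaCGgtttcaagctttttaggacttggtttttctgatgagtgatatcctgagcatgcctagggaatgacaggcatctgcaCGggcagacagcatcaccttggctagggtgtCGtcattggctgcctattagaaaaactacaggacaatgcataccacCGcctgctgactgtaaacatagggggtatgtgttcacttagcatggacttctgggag
Tyrp1, chr4:80833963-80834212, plus strand: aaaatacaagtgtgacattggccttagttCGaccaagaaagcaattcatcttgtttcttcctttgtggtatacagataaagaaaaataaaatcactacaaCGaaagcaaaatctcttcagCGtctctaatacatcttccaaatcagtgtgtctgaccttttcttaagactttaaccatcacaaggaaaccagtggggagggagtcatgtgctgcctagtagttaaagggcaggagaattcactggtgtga
Flg2, chr3:93197023-93197272, plus strand: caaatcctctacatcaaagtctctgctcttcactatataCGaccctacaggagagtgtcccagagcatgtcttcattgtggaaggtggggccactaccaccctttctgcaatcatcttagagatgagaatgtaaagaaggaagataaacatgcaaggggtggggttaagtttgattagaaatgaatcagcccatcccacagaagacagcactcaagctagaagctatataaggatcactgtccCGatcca
These windows held 34 CG in Serpine2, 5 in Cald1, 31 in Hoxd13, 3 in Tyrp1 and 2 in Flg2. The median over 11847 tested genes with a promoter in the table was 14. With CG-rich taken as at least 50% G and C and a CG content of at least 0.6 of that expected from base composition, 56.2% of all tested promoters were CG-rich. Among the authors' higher calls 61 of 126 were CG-rich (48.4%), and among the lower calls 10 of 37 (27.0%). CG content moves with expression level, so it was also read by level. Below a control mean of 50 normalised counts the share was 49.3% of 69 higher calls and 29.6% of all tested genes, and from 50 upward it was 47.4% of 57 higher calls, 27.8% of 36 lower calls and 65.1% of all. A window is a description of sequence, and binding was not measured.

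Transcription factors of embryonic patterning formed the longest of the lists examined. Of 97 tested developmental transcription factors outside the Hox clusters, 18 were called higher and 0 lower in the authors' deposited table. Over all genes with an adjusted p the shares were 1.18% higher and 0.31% lower. The median log2 fold change was 1.63, against −0.00062 over all genes tested, of which 7651 of 15310 were positive. Of the 97, 24 had a control mean under 5 and passed the filter through the 2KO libraries. Over all 129 in the table, without a filter, 112 were positive and the median was 1.49. DESeq2 called 3 of them higher without control 1, 16 without control 2, 10 higher and 1 lower without 2KO library 1, and 7 without 2KO library 2. The median was 1.5 without 2KO library 2 and 0.83 among those with a mean of at least 50.

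Tbx15, a T-box factor of limb and dorsal skin patterning (ENSMUSG00000027868.11, chromosome 3, 99240381 to 99354259), had 26.6 and 21.6 in the controls against 299 and 152 in the 2KO libraries. That was 9.37-fold, with an adjusted p of 1.25e-06 in the authors' deposited table and 0.128 in limma. Ebf3, of the early B-cell factor family, had 10.4 and 44.9 against 334 and 360.4, 12.6-fold. Zic1, a zinc finger factor of the dorsal neural tube and dermis, had 7.29 and 44.9 against 237 and 380.1, 11.8-fold. In each of the 3 the 2KO values lay above both controls by more than the controls differed from each other.

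Pitx1, a homeobox factor known for hindlimb patterning, had 12 and 15 in the controls against 91.5 and 133 in the 2KO libraries and was called. Isl1, a LIM homeobox factor of motor neurons and Merkel cells, had 2.08 and 4.99 against 33.4 and 138. Its DESeq2 adjusted p was 1 without 2KO library 2 and 0.311 without control 1. Wt1, a factor of kidney and gonad, had 0 in both controls and 16.7 and 52.0 in the 2KO libraries, at least 10.5-fold higher when each control library is set to a floor of 3 reads. Other called members were Sim2, Hmga2, Lhx2, Tbx1, Osr2, Lbx1, Hmx2, Hmx1, Evx1, Tal1 and Pax3.

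Among the Hox genes, which give cells their position along the body axis, 4 of 35 tested were called higher and 0 lower in the authors' deposited table. Beside these stand 1.18% and 0.31% of all genes. The calls were Hoxd13, Hoxa10, Hoxb13 and Hoxc10, all from the posterior end of their clusters. Hoxd13 (ENSMUSG00000001819.4, chromosome 2, 74668310 to 74671599) has the CG-dense promoter printed above and had 16.7 and 48.2 in the controls against 226 and 305 in the 2KO libraries, 8.19-fold (adjusted p = 1.61e-05 in the authors' deposited table). Hoxb13 had 0.521 and 0 against 21.6 and 41.2, a ratio of 121 with a 95% counting interval of 20.8 to 4848. Other members with higher counts differed in direction, none with a call. Hoxa5 had 517 and 513 in the controls against 370 and 292 in the 2KO libraries, and Hoxa7 had 1305 and 1522 against 1143 and 615. Hoxb7 had 126 and 106 against 179 and 194, Hoxd8 had 86.5 and 53.2 against 136 and 296, and Hoxc8, with overlap, had 620 and 497 against 737 and 536. Over the tested Hox genes the median was 0.50, with 23 of 35 positive, and 4 of the 35, Hoxb13 among them, had a control mean under 5 and passed the filter through the 2KO libraries. Without the filter 27 of 39 were positive and the median was 0.58. DESeq2 called 0 Hox genes without control 1, 1 without control 2, 2 higher and 1 lower without 2KO library 1, and 1 without 2KO library 2, where the median was 0.29.

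**Figure D4:**
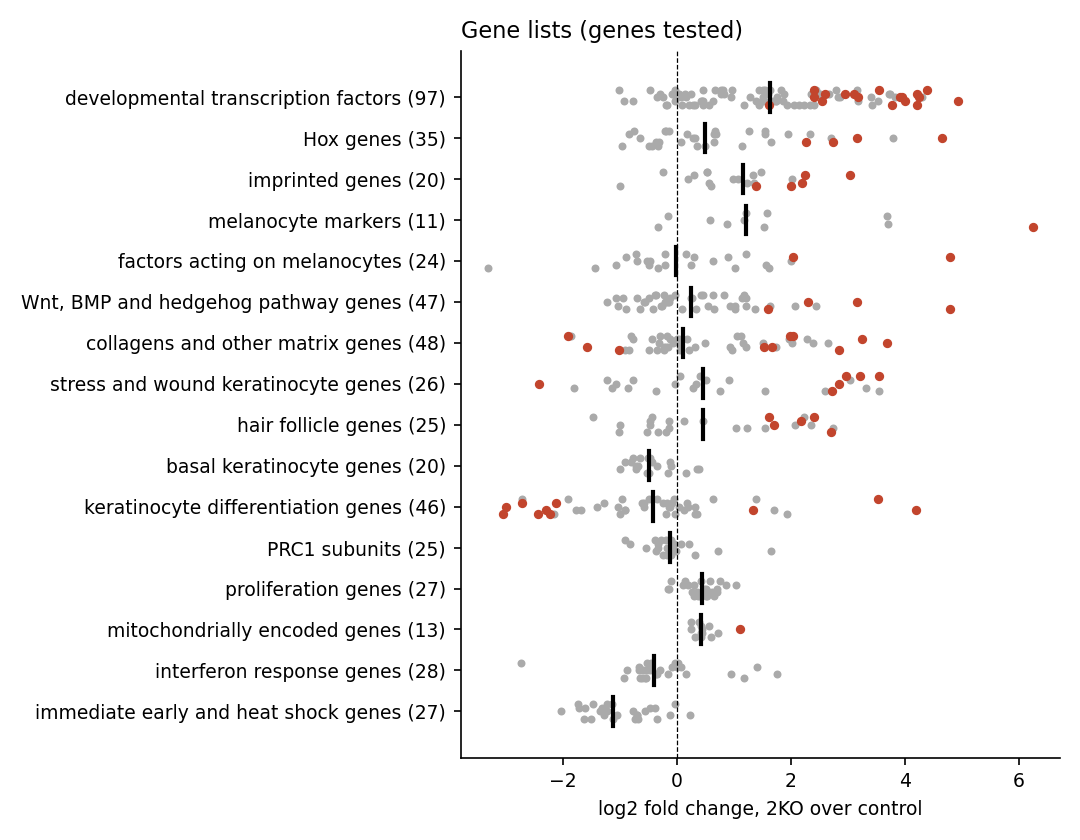
Log2 fold change in limma of each tested member of 16 lists, with the number tested in brackets. Black bars are list medians, red points are genes called in the authors' deposited table in either direction, and the dashed line is the median of all genes tested.

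Imprinted genes, which are expressed from 1 parental allele and often act in growth, also had many higher values. Of 20 tested, 5 were called higher and 0 lower in the authors' deposited table, beside 1.18% and 0.31% of all genes. Of the 20, 18 were positive and the median was 1.15. Without the filter 21 of 23 were positive. Igf2, an insulin-like growth factor, had 735 and 518 in the controls against 1668 and 4827 in the 2KO libraries, 5.18-fold (adjusted p = 0.000101 in the authors' deposited table, 0.413 in limma). Its 2KO values differed from each other by more than the lower one differed from the controls.

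Plagl1, a zinc finger factor, had 261 and 236 in the controls against 580 and 735, 2.64-fold with close values within each group. Zdbf2 had 35.9 and 16.6 against 156 and 276, and Grb10, an adaptor that dampens insulin receptor signals, had 102 and 68.1 against 252 and 450.0. Peg3 had 27.6 and 38.2 against 244 and 104. The order of the 2KO libraries thus differed between genes, with library 2 the higher for Zdbf2 and Grb10 and library 1 for Peg3. DESeq2 called 2 members without control 1 and 2 without control 2, 5 without 2KO library 1 and 3 without 2KO library 2, where the list median was 1.12. Imprinting itself was not measured, since the counts do not separate alleles.

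The series title names skin pigmentation, so genes of pigment cells and of the signals they receive were read. Of 11 melanocyte marker genes tested, 1 was called higher in the authors' deposited table, beside 1.18% of all genes. Tyrp1, an enzyme of melanin synthesis (ENSMUSG00000005994.14, chromosome 4, 80834123 to 80851719), had 0 reads in both controls and 116 and 48.4 normalised counts in the 2KO libraries. That is at least 25-fold higher against the floor of 3 reads (adjusted p = 3.48e-05 in the authors' deposited table, 0.128 in limma). Its DESeq2 adjusted p was 0.104 without control 1, and none was given without 2KO library 1. Dct, another enzyme of the pathway, had 25.5 and 36.6 against 163 and 50.2. Tyr, the rate-limiting enzyme, had 14.6 and 24.9 against 68.0 and 30.5, and neither was called.

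Kit, the receptor that melanocytes need to survive, had 1.04 and 0 in the controls against 27.8 and 10.8 in the 2KO libraries, a ratio of 37.0 with a counting interval of 9.74 to 314. Mlana, a melanosome protein gene, had 1.56 and 0 against 27.2 and 14.3. Neither Kit nor Mlana was called (adjusted p = 0.183 and 0.186 in the authors' deposited table). Mitf, the lineage's transcription factor, was lower in both 2KO libraries, at 180 and 216 against 148 and 167, without a call. Gpnmb, a glycoprotein gene of melanosomes, had the highest control counts of the list, at 374 and 533 against 615 and 723. In all, 9 of 11 tested markers were positive and 4 of the 11 passed the filter with a control mean under 5. The median difference was 2.15 between the deeper libraries and 0.45 between the shallower ones. The summed level of the list was 643 and 872 in the controls against 1318 and 1124 in the 2KO libraries. Whether more melanocytes entered the sort was not tested.

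Of the factors that act on melanocytes, 2 of 24 tested were called higher in the authors' deposited table and 0 lower. Beside these stand 1.18% and 0.31% of all genes. The list median was −0.02 with 12 positive. Kitl, the ligand of Kit made by keratinocytes (ENSMUSG00000019966.18, chromosome 10, 100015630 to 100100416), had 260 and 161 in the controls against 409 and 1676 in the 2KO libraries. The ratio of means was 4.95, most of it from 2KO library 2, and the adjusted p was 0.343 in the authors' deposited table and 0.56 in limma. Edn1, an endothelin, had 79.7 and 66.5 against 112 and 66.3, and Pomc, whose product is cut into melanocyte-stimulating hormone, had 1.56 and 4.99 against 1.24 and 3.59 and was not tested. Nrg1, a ligand of ErbB receptors, had 88.6 and 63.1 against 130.4 and 382 without a call.

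The 2 called factors were a matrix protein and a Wnt antagonist. Col2a1, a fibrillar collagen gene typical of cartilage (ENSMUSG00000022483.17, chromosome 15, 97975602 to 98004695), had 25 and 29.9 in the controls against 104 and 127 in the 2KO libraries, 4.21-fold. Its adjusted p was 0.0125 in the authors' deposited table and 0.207 in limma, and the DESeq2 adjusted p ranged from 0.131 to 0.888 with any 1 library left out. Sfrp2 had 0 reads in both controls and 19.8 and 35.9 normalised counts in the 2KO libraries, at least 8.50-fold higher against the floor. Of this list DESeq2 called 1 higher without control 1, 0 without control 2 and 0 without 2KO library 2, and 2 higher and 2 lower without 2KO library 1.

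In the epidermal programme, several genes of the cornified layer were called lower. The basal keratins Krt5 and Krt14 overlapped between the groups, whereas Krt15 was lower in both 2KO libraries without a call. Of 46 tested keratinocyte differentiation genes, 7 were called lower and 3 higher in the authors' deposited table, beside 0.31% and 1.18% of all genes. Of the 46, 32 were negative and the median was −0.42. Flg2, a filaggrin family gene of the cornified layer with only 2 CG in the promoter window above (ENSMUSG00000049133.7, chromosome 3, 93197278 to 93221391), had 827 and 480 in the controls against 121 and 46.6 in the 2KO libraries. It was 7.82-fold lower (adjusted p = 1.25e-06 in the authors' deposited table, 0.168 in limma). Without control 1 its DESeq2 adjusted p was 0.0939.

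Crct1, a cysteine-rich protein of the same gene complex, had 509 and 231 in the controls against 72.3 and 35.9 in the 2KO libraries, 6.84-fold lower. Lce1m, a late cornified envelope gene, had 532 and 181 against 71.1 and 19.7, and Lor, which encodes the envelope protein loricrin, had 754 and 301 against 159 and 73.5. Cdsn, the gene of the desmosomal protein corneodesmosin, had 843 and 475 against 214 and 75.3, and Kprp had 773 and 372 against 150.2 and 86.1. Within each group the shallower library was the lower one for all of these genes, and the groups did not overlap. Lce1c completed the lower calls. Other cornified layer genes overlapped between the groups and were not called. Flg, which encodes filaggrin, had 350 and 165 in the controls against 111 and 262 in the 2KO libraries. Ivl, which encodes involucrin, had 159 and 71.5 against 92.1 and 55.6. Of the 46 tested members, 19 were lower and 6 higher with no overlap, beside 21.5% and 21.4% of all genes tested. Without control 1 the list median was −0.03 and DESeq2 called 0 members in either direction, so every call of this list was lost. The list median was −0.23 without 2KO library 2.

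Krt1, a keratin of the first suprabasal layer, went the other way, with 13947 and 9866 in the controls against 24228 and 35925 in the 2KO libraries. It was called higher at 2.53-fold (adjusted p = 0.00247 in the authors' deposited table, 0.184 in limma). Its DESeq2 adjusted p was 0.0763 without control 1, 0.526 without control 2 and 0.0603 without 2KO library 2. Its partner Krt10 had 14251 and 15243 against 19962 and 14362, with overlapping groups. The other higher calls, Sprr1b and Sprr2d, are small proline-rich envelope proteins induced in stressed epidermis, and they had at most 5.73 normalised counts in a control and 22.9 and 100.4, and 7.42 and 39.4, in the 2KO libraries.

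Basal keratinocyte genes were not called, with 0 of 20 in either direction in the authors' deposited table, but 17 of 20 were negative, with a median of −0.50. In all, 10 members had an unadjusted limma p under 0.05, all lower, beside 4.81% of all genes tested. With no overlap, 15 of the 20 were lower and 1 higher, beside 21.5% and 21.4% of all genes tested. Krt15, a keratin of basal and follicle stem cells, had 35361 and 23217 in the controls against 18078 and 11459 in the 2KO libraries (ratio 0.504, limma adjusted p = 0.349). Col17a1, a hemidesmosome collagen, had 43301 and 39615 against 27847 and 17304 (ratio 0.545, limma adjusted p = 0.331). Itga6, whose product was used in the sort, had 17301 and 13462 against 9738 and 9343. For these 3 the groups did not overlap, whereas the basal keratin Krt14 had 92857 and 57540 against 85106 and 77544. The median of the list was −0.32 without 2KO library 2.

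**Figure D5:**
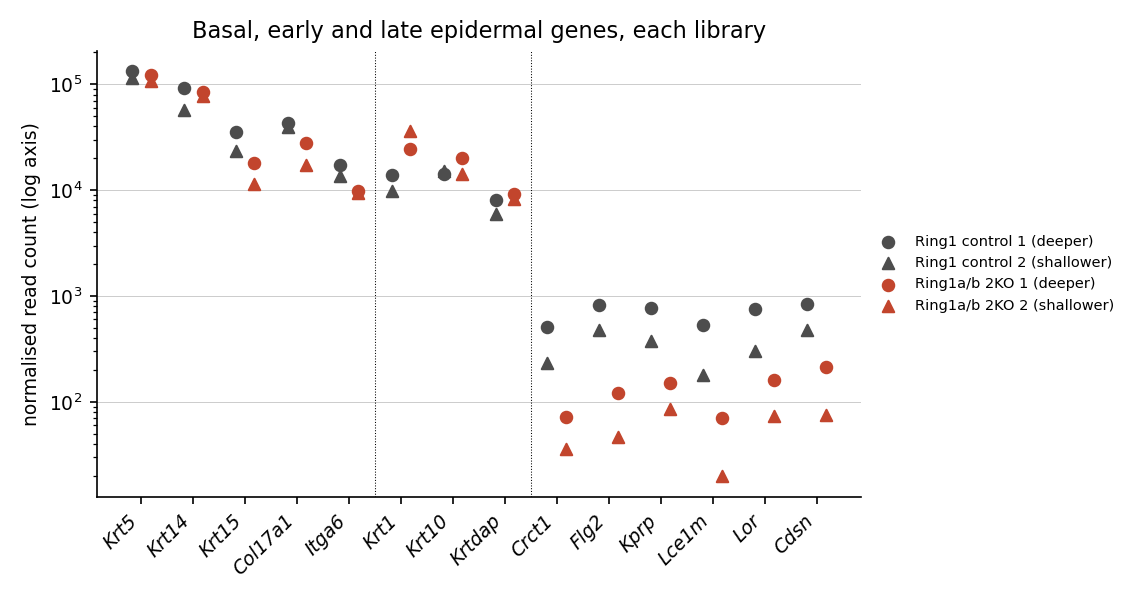
Normalised read count (log axis) in each library of 5 basal genes (left), 3 early differentiation genes (middle) and 6 cornified layer genes (right). The 6 cornified layer genes were picked from the lower calls, so their 2KO points lie below both controls. Those of Krt1 lie above, and those of Krt5 and Krt14 within or near the control range. For the basal genes Krt15, Col17a1 and Itga6 both 2KO points lie below both controls.

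Matrix and adhesion genes were called in both directions. Of 48 tested, 7 were called higher and 3 lower in the authors' deposited table, beside 1.18% and 0.31% of all genes. The list median was 0.11. DESeq2 called 1 higher and 0 lower without control 1, 4 and 0 without control 2, 5 and 6 without 2KO library 1, and 5 and 2 without 2KO library 2. Fbln2, a fibulin (ENSMUSG00000064080.12, chromosome 6, 91212455 to 91272540), had 75.0 and 49.9 in the controls against 342 and 586 in the 2KO libraries, 7.43-fold (adjusted p = 3.91e-08 in the authors' deposited table, 0.0551 in limma). Fbln1 had 56.8 and 69.8 against 202 and 312. Tnc, which encodes tenascin C, had 352 and 701 against 1145 and 1804, and Col5a1, Col2a1, Vcan and Fbn2 were the other higher calls.

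Lama1, the α1 chain of laminin (ENSMUSG00000032796.8, chromosome 17, 67697259 to 67822647), had 780 and 999 in the controls against 367 and 235 in the 2KO libraries, 2.95-fold lower (adjusted p = 0.00126 in the authors' deposited table). Col4a6, a collagen of basement membrane, had 1174 and 1265 against 654 and 547, 2.03-fold lower with close values in each group. Fn1, which encodes fibronectin, had 1971 and 2142 against 899 and 330, with library 2 the lower. Fibroblast markers, read as a check for dermal cells, had 0 of 11 called in the authors' deposited table. Of the 11, 8 were positive, with a median of 0.52, and 5 were higher with no overlap, beside 21.4% of all genes tested. The list summed to 1630 and 1333 in the controls against 2074 and 1501 in the 2KO libraries. The dermal collagen gene Col1a1 had 11.5 and 24.9 against 51.9 and 48.4, and Col3a1 had 5.21 and 1.66 against 1.85 and 0. Dcn, which encodes decorin, had 35.4 and 56.5 against 691 and 48.4, so 2KO library 1 was far above the rest. The part of dermal cells in the matrix genes was not tested.

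Among Wnt, BMP and hedgehog pathway genes, 4 of 47 tested were called higher and 0 lower in the authors' deposited table. Beside these stand 1.18% and 0.31% of all genes. Of the 47, 25 were positive and the median was 0.24. Gli1, the transcription factor that hedgehog signals induce, had 15.6 and 23.3 in the controls against 96.4 and 100.4 in the 2KO libraries, 5.06-fold. Dhh, a hedgehog ligand, had 4.69 and 16.6 against 58.7 and 133, 8.98-fold. Grem1, a BMP antagonist, had 90.6 and 106 against 208 and 432, and Sfrp2 was the fourth call. The groups did not overlap for any of the 4, and none of the 4 was called by DESeq2 without control 1 or without 2KO library 2. Of the list it called 1 without control 2, and 2 higher and 3 lower without 2KO library 1. Rspo3, a secreted amplifier of Wnt signals that was not in this list, was called lower, with 262 and 316 in the controls against 79.1 and 30.5 in the 2KO libraries, 5.27-fold.

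Genes of stressed or wounded keratinocytes gave 5 higher calls and 1 lower of 26 tested in the authors' deposited table. Beside these stand 1.18% and 0.31% of all genes. The list median was 0.45. Stfa3, a stefin inhibitor of cysteine proteases, had 1386 and 1735 in the controls against 7484 and 19899 in the 2KO libraries, 8.78-fold (adjusted p = 1.57e-10 in the authors' deposited table, 0.23 in limma). Krt6a, a keratin of wound edge and follicle, had 147 and 389 against 1788 and 4465, 11.7-fold. S100a8, a calcium-binding alarmin, had 6.25 and 6.65 against 24.1 and 190.1. For each of these 3, 2KO library 2 was the highest of the 4, and the summed level of immediate early genes was lowest there.

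Defb1 and Stfa1 were the remaining higher calls of this list. Ereg, an epidermal growth factor family ligand, was called lower, with 347 and 123 in the controls against 43.9 and 32.3 in the 2KO libraries. DESeq2 called 3 members higher and 0 lower without control 1, 7 and 1 without control 2, 6 and 2 without 2KO library 1, and 3 and 1 without 2KO library 2. The summed level of the list was 17090 and 8801 in the controls against 24720 and 37590 in the 2KO libraries.

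Genes of the hair follicle, the other epithelial compartment from which cells could enter the sort, gave 5 higher calls and 0 lower of 25 tested in the authors' deposited table. Over all genes the shares were 1.18% and 0.31%. Krt24, a type I keratin, had 76.1 and 78.1 in the controls against 488 and 256 in the 2KO libraries, 4.83-fold (adjusted p = 9.07e-05 in the authors' deposited table). The follicle stem cell genes Cd34 and Lgr5 had 19.8 and 15.0 against 70.5 and 195, and 113 and 56.5 against 263 and 262. Lhx2, a factor of the same cells, had 117 and 116 against 264 and 488. In all, 11 of the 25 were negative, and the median was 1.06 between the deeper and 0.03 between the shallower libraries. The summed level of the list was 52030 and 39480 in the controls against 36020 and 22390 in the 2KO libraries, below both controls. DESeq2 called 0 members without control 1, 1 without control 2, 2 higher and 2 lower without 2KO library 1, and 2 without 2KO library 2. With all libraries, 5 of the 25 tested had a control mean under 5.

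Merkel cell markers gave 2 higher calls of 7 tested in the authors' deposited table, Isl1 and Krt18, beside 1.18% of all genes. Both had a control mean under 5 and passed the filter through the 2KO libraries. Without the filter 11 of 12 markers were positive, and DESeq2 called 0 without control 1 and 1 without each of the other libraries. Krt18, a simple epithelial keratin, had 5.21 and 3.32 in the controls against 96.4 and 32.3 in the 2KO libraries, 15.1-fold. Its partner keratin Krt8 had 0.521 and 0 against 8.03 and 1.79, and Krt20, a marker of mature Merkel cells, had 0.521 and 9.97 against 0.618 and 0. The share of Merkel cells in the sort was not tested.

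Many of the largest changes were in genes with few or no reads in the controls. Cdhr1, a cadherin of photoreceptors, had 1.56 and 8.31 in the controls against 98.9 and 224 in the 2KO libraries, 32.7-fold. Stac2, a muscle and neuron adaptor of calcium channels, had 0 reads in both controls and 33.4 and 78.9 normalised counts in the 2KO libraries, at least 17.1-fold higher against the floor. Basp1, a protein of nerve endings, had 1.04 and 6.65 against 53.8 and 115, and the protease inhibitor gene Serpina3n had 1.04 and 6.65 against 87.1 and 66.3. Car2, a carbonic anhydrase, had the largest plain ratio of the named genes, 73.0, but its values were 6.77 and 4.99 against 825 and 34.1, so 2KO library 1 set it. In the other direction Prnd, a relative of the prion protein gene, had 38.0 and 28.2 in the controls and 0 reads in both 2KO libraries, at least 9.16-fold lower.

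Few markers of other cells that the sort could hold were called. Schwann cell and neuronal markers gave 2 higher calls of 10 tested, beside 1.18% of all genes. These were the limma calls Gria3 and Ncam1, and 6 of the 10 were positive and 4 negative. That list summed to 1111 and 1163 in the controls against 2202 and 2630 in the 2KO libraries, with no overlap. Gria3 (79.7 and 83.1 against 639 and 1112) and Ncam1 (40.1 and 46.5 against 813 and 416) are part of that sum. The sum is therefore no separate sign of a rise across the list. The myelin gene Mbp had 517 and 489 in the controls against 312 and 255 in the 2KO libraries. The neuronal tubulin gene Tubb3 had 0 in both controls and 3.09 and 23.3. Whether nerve or glial cells entered the sort was not tested. Langerhans and myeloid markers had 0 of 12 called in the authors' deposited table and summed to 1047 and 1017 in the controls against 1093 and 672 in the 2KO libraries, with the myeloid gene Lyz2 at 0, 3.32, 1.85 and 0. T cell markers had 0 of 6 called, with sums of 1474 and 1187 against 1249 and 1158. Endothelial markers had 0 of 10, with sums of 676 and 804 against 826 and 631. Of the 10, 5 were higher and 1 lower with no overlap, beside 21.4% and 21.5% of all genes tested, and 2 had a control mean under 5. Lyve1, with few control reads, had 1.04 and 0 in the controls against 42.6 and 8.97 in the 2KO libraries. The summed levels of the Langerhans and myeloid, T cell and endothelial lists overlapped between the groups.

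Cell cycle inhibitors, of which Cdkn2a is a textbook Polycomb target, gave 0 calls of 6 tested in the authors' deposited table. Cdkn2a had 4.69 and 0 normalised counts in the controls against 6.80 and 1.79 in the 2KO libraries, too few to test. Its neighbour Cdkn2b had 67.7 and 36.6 against 108 and 149, and Cdkn1c had 66.2 and 44.9 against 112 and 179, with no overlap and no call for either. Proliferation genes had 24 of 27 positive and a median of 0.44, with 0 called in the authors' deposited table. Rrm2, a subunit of ribonucleotide reductase, had 486 and 439 against 729 and 1239 (limma adjusted p = 0.272). The proliferation median was 0.16 without 2KO library 2.

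Immediate early and heat shock genes had 26 of 27 negative and a median of −1.12, but 0 of 27 were called in the authors' deposited table and the groups overlapped for all of them. Fos, the immediate early transcription factor, had 38340 and 18838 in the controls against 29562 and 3781 in the 2KO libraries. Without 2KO library 2 the median was 0.20, but 2KO library 1 against control 1 alone gave −0.41. The sign thus varied with the libraries compared, and the controls themselves differed, with list sums of 457700 and 180400. Interferon response genes had 0 of 28 called, with a median of −0.41 that was 0.23 without 2KO library 2. All 13 mitochondrially encoded genes were higher in both 2KO libraries than in both controls, as were 21.4% of all genes tested. Their median was 0.42, and mt-Nd6 was called in the authors' deposited table. The part of RNA quality or handling in the other results was not tested.

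The Y-linked genes gave 4 of the 48 lower calls of the authors' deposited table. Those 4 were 50% of the 8 genes of chromosome Y with an adjusted p, beside 0.31% of all genes. Besides Uty, Ddx3y had 627 and 223 in the controls against 4.33 and 19.7 in the 2KO libraries, Eif2s3y had 1038 and 407 against 4.94 and 30.5, and Kdm5d had 399.5 and 400.5 against 94.6 and 133. Reads from all 4 genes were present in every library. Among the lower calls with a mean of at least 50 normalised counts, Eif2s3y, Ddx3y and Uty had the largest changes.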

How the data were processed

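RNA from sorted back-skin epidermis was measured in 2 Ring1 control and 2 Ring1a/b 2KO libraries, grouped by GEO's labels. Libraries were made from 10 ng of amplified total RNA and read as 150 nt pairs, per the labels' protocols. kallisto 0.42.5 for quantification, DESeq2 3.11 and the build mm10 are named, per the submitters' processing notes. How strand was treated is not given in the sources used here. Overlapping genes on opposite strands, and reads shared by near-identical families such as Lce1 and Sprr2, cannot be set apart.

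The deposited per-library values are normalised read counts, a signal or coverage unit. The log2 fold changes and the p-values, raw and adjusted, in the deposited table are the authors' own. In each library 100% of values were whole multiples of 1 step (tolerance 1e-06), so reads were recovered. Intervals and floors of 3 reads cover counting error only, since amplified reads are not independent molecules.

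Genes whose mean over the 4 libraries reached 5 were fitted with limma 3.58.1 (trend, robust) on log2(value + 1), a scale that understates the change of low genes. A gene was called at a Benjamini-Hochberg adjusted p under 0.05. edgeR 4.0.16, DESeq2 1.42.0 (R 4.3.3) and limma-voom were run on recovered reads, and the script was tested on simulated data. Other alternatives were pseudocounts of 0.5 and 5, no filter, a mean of at least 50, quantile normalization, centring, thresholds of 0.01 and 0.1, a minimum log2 change of 1 in size, a block for the replicate number, and leaving out each library. Leaving out libraries in DESeq2 and edgeR was added after seeing the data. Where a group kept 1 library, that library was assumed to vary like the other group.

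Identifiers were matched to GENCODE M21, 17686 of 18344 with their version and 18339 without it. For 10 symbols on more than 1 identifier, lists use the identifier with the higher mean. Folds are ratios of group means. The 30 gene lists, written from general knowledge, and the members of the comparison were chosen with earlier results of these data known. Named were Ring1 and Rnf2, 9 genes of interest in pigmentation or as Polycomb targets, for either direction the 10 calls that changed most and had a mean of 50 or more (limma, then the authors' deposited table, predicted genes skipped), up to 5 low-level calls in each direction, and up to 4 members of each list by smallest p. Further members of a list, genes called without each library in turn and single marker genes were named after their values were seen.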

Additional observations from a re-analysis of the deposited data

How the results depend on the processing

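The count of 6 limma calls was 6 with a pseudocount of 0.5, 8 with 5, 4 at a mean of at least 50, 6 after quantile normalization, after centring, with limma-voom and with a log2 change of 1 or more in size required, and 9 at a threshold of 0.1. It was 10 (9 higher, 1 lower) without a filter, 3 at a threshold of 0.01, 0 with edgeR (1474 at an unadjusted p under 0.05), and 231 (183 higher, 48 lower) with DESeq2 and in the authors' deposited table. With each library left out it ranged from 0 to 438, that of DESeq2 from 39 to 679 and that of edgeR from 0 to 1059; the high end came without 2KO library 1, when limma called 101 higher and 337 lower, and the cause was not tested. With the replicate number as a block limma called 36 genes, 24 higher and 12 lower. Same-numbered libraries deviated together at r = 0.14. With 2 libraries a group the value for other-numbered ones, −0.14, is the same number with its sign reversed and adds nothing. With 2 pairs, and nothing in the labels on what a number marks, the block was not used. Some log2 fold changes of single genes, none of them called by limma with all 4 libraries, changed sign when 1 library was left out, and the cause was not tested. Lowest to highest, they ran from −0.30 to 1.45 for Alas2, −0.59 to 0.16 for Cd8a, −0.95 to 0.27 for Cdkn2d, −3.23 to 0.0024 for Dusp1, −0.13 to 0.62 for Edn1, −3.11 to 0.56 for Hba-a2, −1.49 to 0.12 for Hspb1, −0.11 to 2.68 for Prox1, −0.94 to 0.72 for Ring1, −0.35 to 0.099 for Rnf2, −0.21 to 1.03 for Tdrd1 and −0.56 to 0.60 for Zcwpw1. With limma-voom the changes were 0.25 for Ring1 and −0.25 for Zcwpw1, and Zcwpw1 was −0.040 after quantile normalization and −0.0037 after centring. With 2 libraries a group and 6237389 reads in the shallowest, a gene at 0 there could still have up to 5.38 normalised counts, the level of 3 reads, so absence of a low gene was not detectable at this depth.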

Other observations

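Many of the lower cornified layer genes lie together in the epidermal differentiation complex on mm10 chromosome 3, a cluster of genes for envelope and S100 proteins. Between 90511034 and 93564643 the table holds 67 genes, of which 48 were tested. The authors' deposited table called 7 of them lower and 5 higher, beside 0.31% and 1.18% of all genes. Without control 1 DESeq2 called none of these 7 lower genes, with Flg2 at the smallest adjusted p, 0.0939. Of the 37 tested genes there other than S100 genes, 24 had a negative log2 fold change, with a median of −0.67, and 8 of the 11 tested S100 genes had a positive one. The late cornified envelope genes Lce1b and Lce1l had 72.9 and 28.3, and 50 and 15, normalised counts in the controls and 9.89 and 3.59, and 4.94 and 3.59, in the 2KO libraries, without a call. In contrast the small proline-rich gene Sprr2a2 was called higher in the authors' deposited table, with 1636 and 4859 in the controls against 7775 and 12103 in the 2KO libraries, and Prr9 had 4.17 and 3.32 against 118 and 12.6. Neighbours in the complex thus differed in direction, and the near-identical copies in the Lce1 and Sprr2 families share reads. By chromosome, 9 of the 48 lower calls lay on chromosome 3, 1.19% of its 759 genes with an adjusted p. Another 4 lay on chromosome Y, 50% of its 8 such genes.

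Among 24 tested p53 target genes, which respond to DNA damage, 1 was called higher in the authors' deposited table, beside 1.18% of all genes. Of the 24, 14 were positive and the median was 0.05. That call was Aen, an apoptosis-enhancing nuclease gene, with 504 and 396 normalised counts in the controls against 787 and 1201 in the 2KO libraries, 2.21-fold. Cdkn1a, the best known target, had 4200 and 2047 against 3825 and 2340, with overlap. Among 13 sebaceous gland genes the fatty acid binding protein gene Fabp5 was called higher, with 983 and 626 against 2126 and 3161, 3.28-fold, and the list median was 0.01. Only 3 of 20 germline genes passed the filter on low values, and 0 were called in the authors' deposited table.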
